A study of Mus musculus with 194 samples.

Results

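The regions described here are 50 kb windows of the mouse genome that took many transposon insertions in N2a cells and few in mouse cortex. A window of GRCm38 chromosomes 1 to 19 was chosen where the N2a table held at least 50 insertions and where the N2a level was at least 8 times that of both C57bl6J cortex tables summed. Of 47313 windows with an insertion in any table, 4267 held at least 50 N2a insertions and 681 met both conditions, or 1.44% of all windows and 16% of the 4267. The values that chose the windows are those of N2a and C57bl6J, so the difference between them is a description and carries no test. An insertion is 1 line of a deposited table, and levels are given in CPM, the insertions of a window scaled to all lines of its table.

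The study used calling cards, in which a transposase leaves a transposon at a TTAA near its own place on the chromatin. N2a cells are an established line from a mouse neuroblastoma. The authors gave the 3 N2a experiments as 1 table of 806653 insertions, so there is no replicate. The C57bl6J group is 2 mice given Cre-independent viruses, with 1545951 and 2186743 cortical insertions. The protocol in the labels gives AAV injection at birth or the following day for all of these samples, and lists the same protocol for the cell line.

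The other groups did not enter the choice of windows. Syn1Cre mice carry Cre in a line used for neurons and GFAPCre mice in a line used for astrocytes, with 6 animals each, and the Cre-negative groups Syn1CreNeg and GFAPCreNeg also hold 6 each. Syn1Cre_SP1_P28 (4 animals) and Syn1Cre_SP1_P10 (3 animals) are Syn1Cre mice labelled with the transcription factor SP1 and with P28 or P10, read here as postnatal day 28 or 10. Frontflip_GFAPCre and Frontflip_GFAPCreNeg hold 3 animals each under a construct name that the labels do not explain. Rbp4Cre_TRAP holds 4 animals, from whole forebrain. BrokenHeart holds 3 animals, whose insertions were read from DNA, whereas all other tables were read from RNA. Tables of single animals held between 2341 insertions (Frontflip_GFAPCreNeg) and 2186743 (C57bl6J), and a window at 0 in a shallow table is a weak measurement.

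Unfused piggyBac transposase tends to insert in open chromatin and near active enhancers bound by bromodomain proteins, and for this reason its insertions are used to mark cell identity genes. Neuroblastoma derives from the sympathetic lineage of the neural crest, in which Hand2, Gata2, Gata3 and Isl1 are core transcription factors. Cortical projection neurons instead use factors such as Tbr1 and Mef2c.

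The insertion sites can be seen in promoter sequences. The RefSeq promoter table (GRCm38.p6) gives 300 bases around a gene start, 250 of them before it, and 508 of its 31396 promoters on chromosomes 1 to 19 start in a chosen window. TTAA, which reads the same on both strands, was present in 52.3% of all these promoters and in 54.9% of those in chosen windows. All 11225 N2a insertions inside promoters lay exactly on a TTAA. Of the promoters with the most N2a insertions in chosen windows 3 are shown first, followed by that of Hand2, the lineage factor in the window with the highest ratio. Each is written 5′ to 3′ on the gene's strand, with TTAA in capitals.
Gm20597: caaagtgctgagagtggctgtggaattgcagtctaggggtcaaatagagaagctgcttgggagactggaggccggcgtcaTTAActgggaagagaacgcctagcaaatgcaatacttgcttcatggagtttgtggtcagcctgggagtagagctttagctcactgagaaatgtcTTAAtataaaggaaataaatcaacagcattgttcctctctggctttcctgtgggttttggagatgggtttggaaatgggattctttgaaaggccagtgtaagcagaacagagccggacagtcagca
Olfr630: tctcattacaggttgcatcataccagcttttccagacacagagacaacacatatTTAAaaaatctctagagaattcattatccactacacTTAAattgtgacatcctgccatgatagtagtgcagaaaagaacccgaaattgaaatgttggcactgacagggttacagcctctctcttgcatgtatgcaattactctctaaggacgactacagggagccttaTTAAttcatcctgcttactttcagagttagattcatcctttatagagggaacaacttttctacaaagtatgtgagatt
Rsrc1: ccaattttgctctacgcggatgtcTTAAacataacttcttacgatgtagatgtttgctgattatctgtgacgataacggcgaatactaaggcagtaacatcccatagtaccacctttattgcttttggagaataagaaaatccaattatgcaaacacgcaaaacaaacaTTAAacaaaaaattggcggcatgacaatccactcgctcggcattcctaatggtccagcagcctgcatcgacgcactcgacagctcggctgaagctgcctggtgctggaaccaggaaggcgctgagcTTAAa
Hand2: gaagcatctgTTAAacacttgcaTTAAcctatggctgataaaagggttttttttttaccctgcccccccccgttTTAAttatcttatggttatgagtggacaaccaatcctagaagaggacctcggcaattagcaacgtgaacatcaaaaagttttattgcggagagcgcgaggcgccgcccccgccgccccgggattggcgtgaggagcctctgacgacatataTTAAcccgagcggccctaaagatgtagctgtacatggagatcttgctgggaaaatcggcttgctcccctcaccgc

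The Gm20597 promoter (chr10:53518940-53519239, minus strand) held 27 N2a insertions and 5 C57bl6J insertions, and 25 of the 27 lay on the TTAA that begins 170 bases before the start. The promoter of the olfactory receptor gene Olfr630 (chr7:103757301-103757600, minus strand) held 24 N2a insertions and 0 in C57bl6J, with 21 on the TTAA 28 bases before the start. The Rsrc1 promoter (chr3:66985412-66985711, plus strand) held 24 against 6. At Hand2 (chr8:57320733-57321032, plus strand) the promoter held 1 N2a insertion on 4 TTAA sites, so that nearly all of the insertions of its window lay elsewhere.

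The chosen windows held a median of 93 N2a insertions (50 to 670) and a median of 33 C57bl6J insertions over both mice (3 to 268). The ratio of the levels had a median of 12.6 and reached 291. It was at least 16 in 227 windows, at least 32 in 72 and at least 100 in 10. The choice has no natural border: 207 windows had ratios under 10. Just inside the border were windows over Mtus1, near Trps1 and over Itgb6, each at 8.01, and just outside were windows over C1qtnf7 and Deptor at 7.99 and over Ttc8 at 8.00. The lowest counts inside were 50 insertions, over Kcnj12, over Dlk1 and near Casz1, whereas 3 windows with 49 insertions and ratios of 8.10 to 9.07 were left out.

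**Figure D1:**
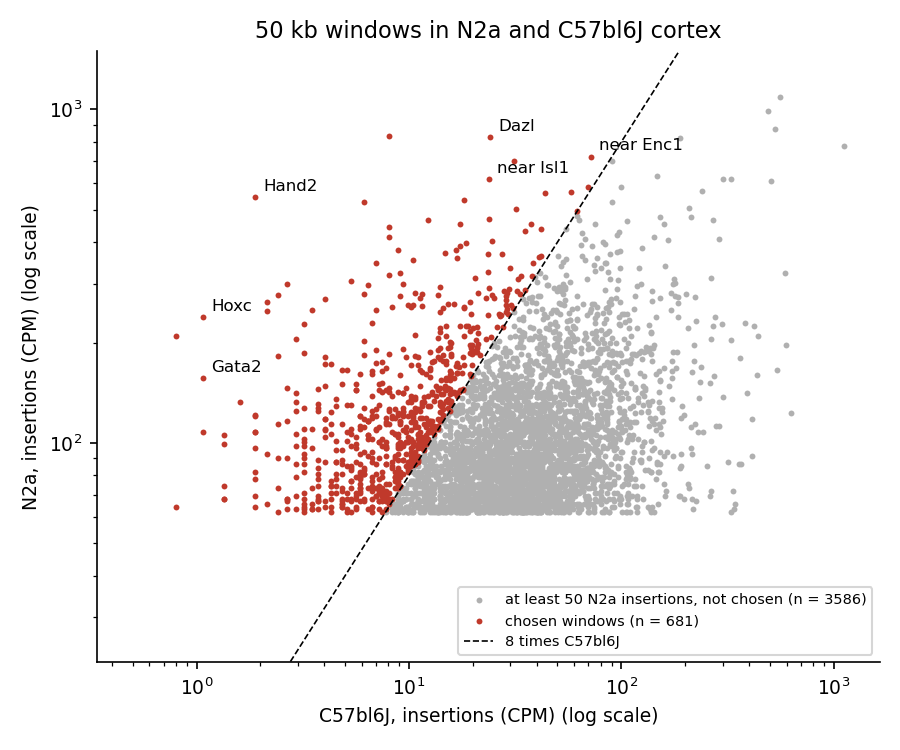
Insertions in CPM in N2a (vertical, log scale) against both C57bl6J mice summed (horizontal, log scale), 1 point for each of the 4267 windows with at least 50 N2a insertions. The 681 chosen windows lie on or above the dashed line at 8 times C57bl6J, with the Hand2 window at 545 against 1.88 CPM.

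The N2a table keeps the experiments partly apart, since per the labels 1 barcode belongs to experiment 2 and the other to experiments 1 and 3. Taken alone, experiment 2 gave a ratio of at least 8 in 602 of the 681 windows and experiments 1 and 3 in 652, with medians of 13.4 and 12.4. Both gave at least 8 in 573 windows. These counts use the same insertions as the choice and describe how evenly the experiments contributed. The lowest ratio in experiment 2 was 1.76 and in experiments 1 and 3 it was 6.77. The insertions lay on 32684 different positions, of which 58.1% had 1 insertion and 183 had 20 or more. The most used position in the Hand2 window, chr8:57331835, held 40 insertions, 17 on the plus and 23 on the minus strand, with 13 from experiment 2 and 0 in C57bl6J.

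Adjacent windows often qualified together. The 681 windows formed 520 runs, of which 426 were single windows and 94 held 2 to 7 windows, for 255 windows in all. The chromosomes differed: 25.7% of the windows with at least 50 N2a insertions were chosen on chromosome 13 (78 windows) and 25% on chromosome 8 (68), against 8.62% on chromosome 18 (10) and 9.16% on chromosome 10 (25). The N2a share of insertions was itself 1.19 times the C57bl6J share over all of chromosome 13 and 1.26 times over chromosome 8, against 0.783 on chromosome 18 and 1.10 on chromosome 10. The part of chromosome copy number in N2a was not tested. With insertions scaled within each chromosome, an alternative added after seeing the data, 649 windows qualified and 584 of them were among the 681.

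Chosen windows lay outside genes more often than the other windows with as many N2a insertions. Of the 681, 349 (51.2%) overlapped no protein-coding gene, 239 (35.1%) overlapped at least 1 gene in part and 93 (13.7%) lay inside a single gene. Of the other 3586 windows, 22.5% overlapped no protein-coding gene. The intergenic chosen windows lay a median of 73.6 kb from the nearest protein-coding gene, and 140 of them lay beyond 100 kb, with 10 beyond 1000 kb. An annotated lncRNA overlapped 139 of the 349. Since C57bl6J insertions took part in the choice, these shares are a description and were not tested.

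Hand2 encodes a bHLH factor of sympathetic neurons, and its window, chr8:57300001-57350000, had the highest ratio of all, 291. It held 440 insertions in N2a, 2 and 5 in the C57bl6J mice, 14 over the 6 Syn1Cre animals and 9 over the 6 GFAPCre animals. In CPM the levels were 545 in N2a, 2.34 ± 1.80 in Syn1Cre (SD, n = 6) and 1.85 ± 1.44 in GFAPCre (SD, n = 6). Over the gene and its 10 kb flanks the count was 363 against 2 and 1. The window was 1 of 11 chosen within 1200 kb of the gene. Of these, 4 windows from 521 to 671 kb away held 789 insertions against 105, and 4 windows from 271 to 421 kb away held 1003 against 61. The first group begins 6.06 kb from Fbxo8, which was the nearest gene for 6 chosen windows.

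**Figure D2:**
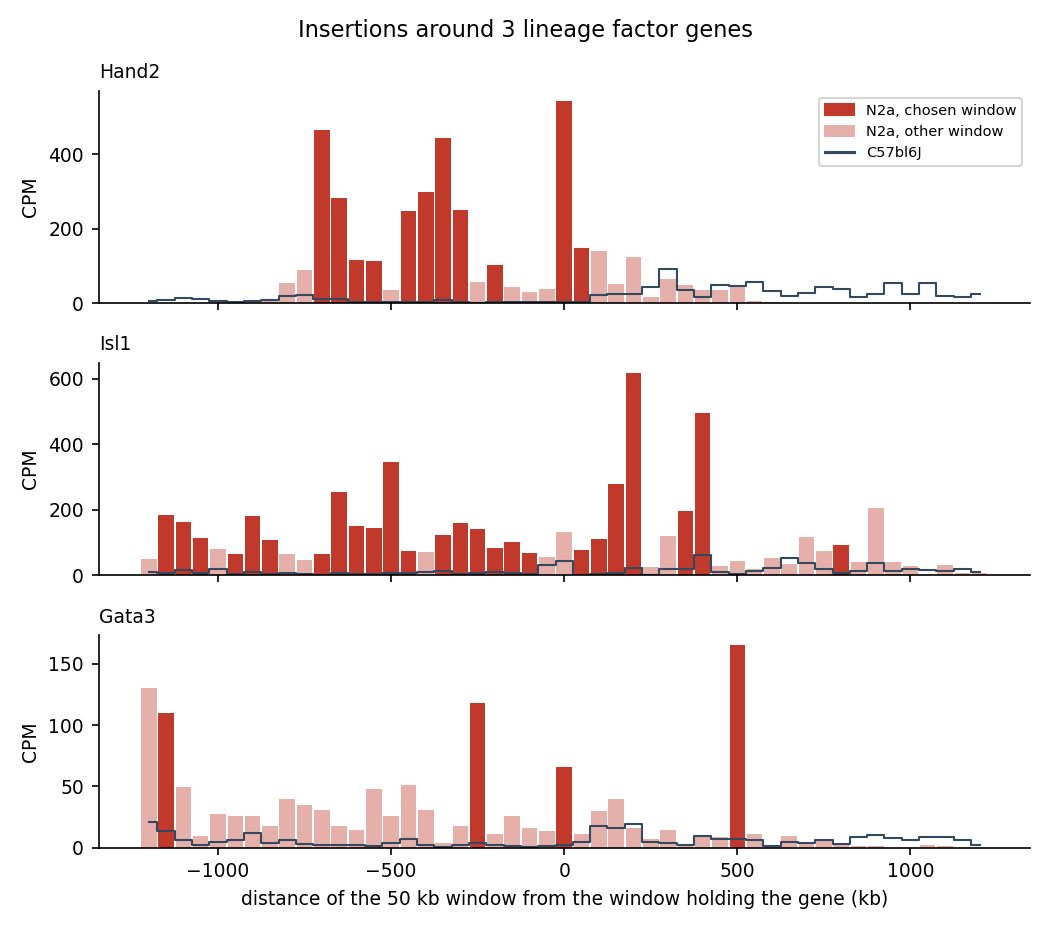
Insertions in CPM in 50 kb windows within 1200 kb of the window that holds the midpoint of Hand2, Isl1 or Gata3, as bars for N2a (dark where chosen) and a line for both C57bl6J mice summed. The number of chosen windows is 11, 25 and 4, and at Isl1 they lie on both sides of the gene but not on it.

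Isl1, a LIM homeodomain factor of sympathetic and motor neurons, was itself outside the chosen windows, with 107 CPM in N2a over the gene and flanks against 81.5 and 66.3 in the C57bl6J mice. It was nevertheless the gene nearest to the most chosen windows: 14, from 40.3 to 548 kb away, with ratios of 8.50 to 49.8. The one with the most N2a insertions, chr13:116500001-116550000, lay 190 kb from Isl1 and held 498 against 37 and 52 (ratio 25.9). Itga1, an integrin subunit gene farther along the same interval, was nearest to 8 more, and Myc, the growth regulator on chromosome 15, to 7 windows from 260 to 710 kb away.

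Of 15 neuroblastoma lineage factors, 6 overlapped a chosen window (Hand1, Hand2, Gata2, Gata3, Tfap2b and Tbx2), or 40%, against 2.10% of all 20665 protein-coding genes. The lists were drawn up with results of these data known, so these shares are no independent evidence. The zinc finger factors Gata2 and Gata3 lay in windows with 126 insertions against 4 (ratio 146) and 53 against 8 (ratio 30.7). Dnajb8 shares the Gata2 window, and Gata2 with its 10 kb flanks held 59 N2a insertions, at a ratio of 39.0. The AP-2 factor Tfap2b lay in a window with 149 against 30 (ratio 23.0), and the bHLH factor Hand1 in one with 105 against 20 (ratio 24.3). For Tbx2 the gene and flanks held only 5 of the 62 insertions of its window. Mycn was the nearest gene of a chosen window, but its own locus stood at 21.1 CPM against 15.5 and 19.2.

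Among 16 sympathetic receptor and catecholamine genes, Alk, Ddc and Slc6a2 overlapped chosen windows, or 18.8%, against 2.10% of all protein-coding genes. Alk, a receptor tyrosine kinase mutated in neuroblastoma, overlapped 3, with ratios of 16.5, 10.9 and 11.1. Over the whole of this long gene and its flanks the ratio was 5.68. Ddc, which makes dopamine from L-DOPA, overlapped 2, with 220 insertions against 42 and 118 against 36. The window of the noradrenaline transporter Slc6a2 held 51 insertions, but 0 of them lay in the gene or its 10 kb flanks. Of 6 cholinergic genes 2 (33.3%) overlapped a chosen window. Chat, which makes acetylcholine, and the vesicular transporter Slc18a3 nested with it shared a window with 104 insertions against 47. Chat and its 10 kb flanks held 48 N2a insertions against 12 and 14. The choline transporter Slc5a7 was nearest to a window with 213 against 8 (ratio 123), 73.6 kb away.

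All 7 Hox genes that overlapped chosen windows belong to the Hoxc cluster, whose factors pattern the trunk and which is normally silent in the forebrain. The window with Hoxc6 to Hoxc11 held 192 insertions against 2 and 2, a ratio of 222, and the neighbouring window with Hoxc4 to Hoxc6 held 107 against 0 and 6, a ratio of 82.5. No other Hox gene of the 39 in the list overlapped one, so the share was 17.9%, against 2.10% of all protein-coding genes. Of 20 mesenchymal and neural crest factors only Pax3 did (5.00%), with 55 against 1 and 4, and only 2 of the 55 came from experiment 2. Of 10 microglia and vessel genes only the endothelial receptor Tek did (10.0%), with a ratio of 8.88. Among the cortical projection neuron (15), interneuron (12), astrocyte (14), oligodendrocyte (7 on chromosomes 1 to 19) and cell cycle (16) genes, 0 overlapped a chosen window.

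CPM over whole loci was compared in the same lists, as a description, since the lists were drawn up with results known. Over the 15 neuroblastoma factors the median ratio of N2a to C57bl6J was 2.37, against 1.07 over all protein-coding genes, and it was 0.0791 over the cortical projection neuron factors. Mef2c, a transcription factor of cortical neurons, held 6 insertions in N2a and 2023 and 2830 in the C57bl6J mice. Medians were 0.108 for interneuron factors, 0.336 for astrocyte genes and 0.578 for oligodendrocyte genes. They were 5.06 for cholinergic genes and 3.54 for sympathetic receptor and catecholamine genes, both above the neuroblastoma factors, and 1.95 for cell cycle genes. For microglia and vessel genes, mesenchymal and neural crest factors and Hox genes they were 1.32, 0.930 and 0.771. Most Hox loci held very few insertions in N2a and C57bl6J alike, as Hoxd9 did with 1 against 2 and 4. The Hox median is thus a value near the floor.

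**Figure D3:**
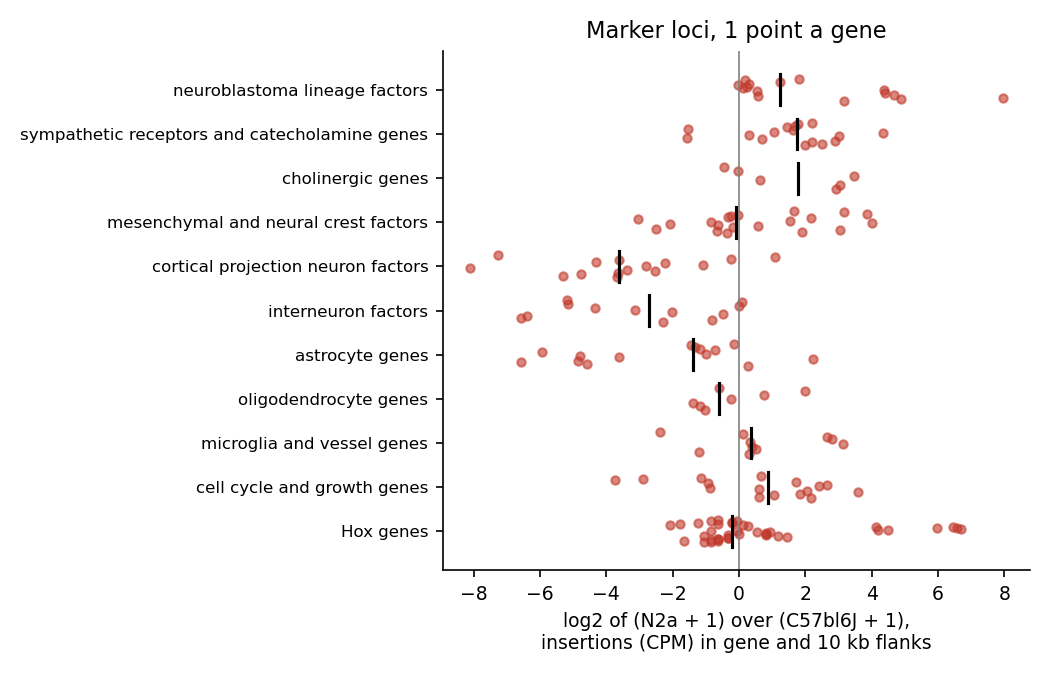
Log2 of N2a over C57bl6J CPM, each with 1 added, over the gene body and 10 kb flanks, 1 point per gene and a black line at the list median, for 11 gene lists. Neuroblastoma and sympathetic genes lie mostly to the right of 0 and 13 of the 15 cortical projection neuron factors at or below 0.5 times C57bl6J.

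Other windows with many insertions lay over or near genes outside these lists. The window over Dazl, an RNA-binding protein gene of germ cells, held 665 insertions against 29 and 61 (ratio 34.2). The window over Dpysl3, a gene of growth cone dynamics, held 567 against 53 and 63 (ratio 22.6). A window over the lncRNA gene Lncenc1, 147 kb from the nearest protein-coding gene Enc1, held 583 but also 268 in C57bl6J (ratio 10.1). A window of replication-dependent histone genes held 472 against 261 over both mice (ratio 8.37). The run with the most N2a insertions spanned 7 windows, with 1743 against 220 (ratio 36.7). Dkk1, a secreted Wnt inhibitor, lay towards the end of this run, which also took in part of Prkg1. The window of the run with the most insertions (427 against 23, ratio 85.9) lay 60.3 kb from Mbl2, its nearest gene, and 196 kb from Dkk1. The run over Lrba and Mab21l2 held 1187 against 321, and the window over St18, a zinc finger gene, 380 against 89. Among the highest ratios were a window 27.5 kb from Myo3a (169 against 3, ratio 261), Runx3, a runt factor (87 against 4, ratio 101), the cardiac factor Tbx20 (147 against 9, ratio 75.6), a window 39.1 kb from Rbmxl2 (80.2) and one 19.4 kb from the forkhead gene Foxl1 (78.7). The 87 insertions of the Runx3 window lay on 19 positions, and chr4:135184309 alone held 37 of them.

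The chosen windows are 1.44% of the windows and held 10.1% of all N2a insertions, a share that the choice itself makes high. Its 95% Wilson interval of 10.0 to 10.1 covers counting error only. It takes insertions as independent, although the chosen windows held a median of 2.36 N2a insertions per distinct position. In the C57bl6J mice, also part of the choice, the chosen windows held 0.728% and 0.735%. In the groups outside the choice the mean share was 0.686% ± 0.0423 in Syn1Cre (SD, n = 6), 0.668% ± 0.0374 in GFAPCre (n = 6), 0.632% ± 0.0390 in Syn1CreNeg (n = 6) and 0.620% ± 0.0319 in GFAPCreNeg (n = 6). It was 0.661% ± 0.0352 in Frontflip_GFAPCre (n = 3), 0.705% ± 0.0883 in Frontflip_GFAPCreNeg (n = 3) and 0.672% ± 0.0730 in Rbp4Cre_TRAP (n = 4). It was higher in value with SP1, at 0.782% ± 0.0470 at P28 (n = 4) and 0.875% ± 0.0253 at P10 (n = 3), and highest in BrokenHeart, at 1.07% ± 0.0543 (n = 3). The 3 BrokenHeart animals (1.02% to 1.13%) lay above every animal read from RNA. The 3 SP1 animals at P10 (0.851% to 0.901%) and the 4 at P28 (0.739% to 0.836%) lay above all 6 Syn1Cre animals (0.610% to 0.728%). The other 3586 windows with at least 50 N2a insertions also took a larger share with SP1, 24.2% ± 1.44 at P28 (n = 4) and 24.7% ± 0.571 at P10 (n = 3) against 18.9% ± 0.859 in Syn1Cre (n = 6). In BrokenHeart they held 15.5% ± 0.555 (n = 3). These shares were not tested, because the windows were chosen with results known.

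**Figure D4:**
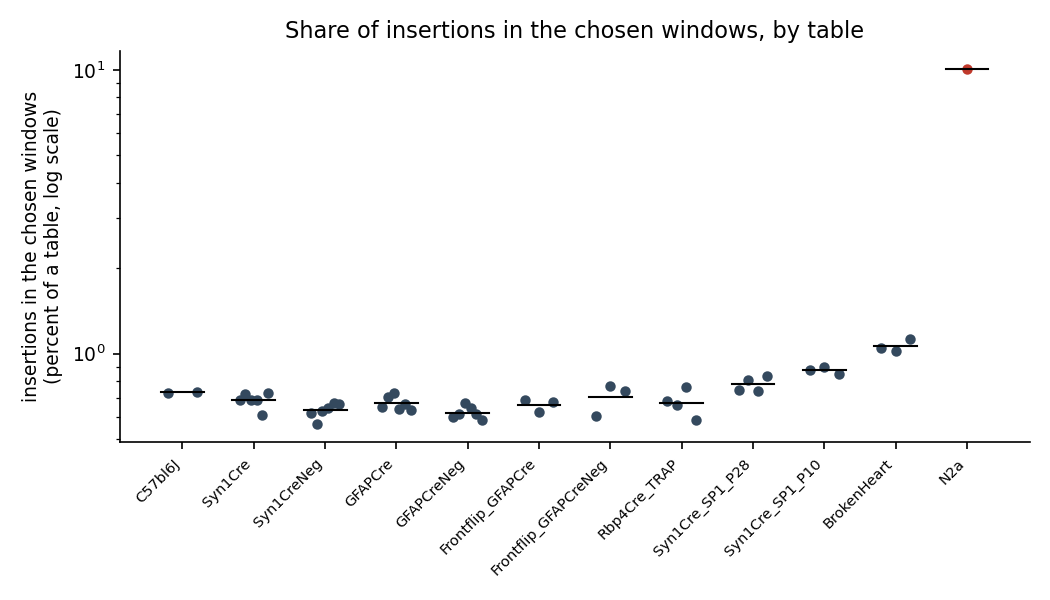
Percent of each table's insertions that lie in the 681 chosen windows (log scale), 1 point per table and a bar at the group mean. N2a stands at 10.1% and all 46 animals between 0.565% and 1.13%.

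Between Syn1Cre and GFAPCre animals, few chosen windows differed. Only 183 of the 681 passed the low-count filter. By edgeR's quasi-likelihood test with Benjamini-Hochberg adjustment over all windows, 2 were higher and 3 lower in Syn1Cre, while of all 22468 windows tested 1.52% were higher and 1.31% lower. The members' counts are near that background. The window over Zfp217, a zinc finger gene, held 37.0 to 83.5 CPM in Syn1Cre (median 50.8) and 78.0 to 173 in GFAPCre (median 106), so the groups overlapped slightly. The difference was -1.11 on the log2 scale (SE 0.20), with an edgeR adjusted p of 0.00214. In that window the mean was 53.9 CPM in Syn1Cre, 57.5 in C57bl6J, 54.8 in Rbp4Cre_TRAP and 47.5 in BrokenHeart. It was 113 in GFAPCre, 131 in Syn1CreNeg, 118 in GFAPCreNeg and 184 in Frontflip_GFAPCre. With SP1 it was 92.5 at P28 and 122 at P10. Both Cre-negative groups were thus as high in value as GFAPCre, which was not tested. The windows near Mbnl1 and Rps24 were lower (log2 -0.83 and -0.69), and those near Gpr158 and Mrm1 higher (1.02 and 1.20). These 4 lost the edgeR call in some alternatives, with adjusted p-values of up to 0.110, 0.277, 0.0755 and 0.0833, whereas Zfp217 kept it in all 18. Without Syn1Cre animal 5 the counts became 5 higher and 12 lower (2.53% and 6.06% of the chosen windows tested), and the calls over all windows rose too, to 3.14% higher and 5.10% lower. Without any other single animal they were 0 to 2 higher and 1 to 3 lower. The 2 groups were sequenced in separate pools, and the effects of pool and genotype cannot be told apart.

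With SP1 at P28 against Syn1Cre, 172 of the 681 windows passed the filter, and 60 were higher and 7 lower by edgeR. Of all 20635 windows tested, 20.7% were higher and 18.5% lower. A window that is low in Syn1Cre passes the filter only where SP1 raises it, so these counts are no support for a shift of the chosen windows. Without the filter, 66 of 681 (9.69%) were higher, against 8.92% of all windows, and 17 (2.50%) were lower, against 9.00% of all windows. With SP1 at P10, 229 passed, and 32 were higher and 5 lower, against 10.4% and 14.3% of 23744 windows. Without the filter, 22 of 681 (3.23%) were higher, against 3.76% of all windows, and 11 (1.62%) lower, against 10% of all windows. The chosen windows had a median of only 7.75 CPM in Syn1Cre. SP1 tables held 86842 to 95331 insertions at P10 and 108965 to 577609 at P28. At such depths a window this low can hardly be called lower. The shares called lower are therefore no support for the chosen windows being spared. Leaving out 1 SP1 animal at P10 at a time gave 20 to 23 higher (20 without animal 2) and 1 to 2 lower, and at P28 the count lower was 4 without Syn1Cre animal 1 or SP1 animal 1 and 11 without Syn1Cre animal 5. Both comparisons use the same 6 Syn1Cre animals, which were sequenced in other pools than the SP1 animals. The effects of pool and SP1 therefore cannot be told apart. The titles of the Syn1Cre samples give no postnatal day, so an effect of age cannot be told apart from that of SP1 either.

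The largest rise was in chr15:76650001-76700000, a gene-dense window with Cyhr1, Kifc2, Ppp1r16a, the transaminase gene Gpt and Foxh1, a partner of SMAD proteins. The 6 Syn1Cre animals had 5.60 to 15.8 CPM (median 10.4), the 4 SP1 animals at P28 had 211, 266, 292 and 177, and the 3 at P10 had 242, 290 and 262. All SP1 animals lay above all Syn1Cre animals. The difference on the log2 scale was 4.55 at P28 (SE 0.23, edgeR adjusted p = 2.53e-13) and 4.60 at P10 (SE 0.29, edgeR adjusted p = 3.15e-13). The window was low in Syn1Cre and at P28 passed the filter only through the SP1 animals. It kept the call in all 15 alternatives at P28 and all 14 at P10, the one without the filter among them. The SP1 levels are above the 73.1 CPM of N2a in the same window.

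Among the other windows with the largest rises, a window 5.25 kb from Helt, a bHLH factor gene, rose by log2 2.96 at P28 and 3.69 at P10, and one 21.0 kb from Acsl1, an acyl-CoA synthetase gene, by 2.53 and 3.38. The amino acid transporter gene Slc7a5, with Car5a and Banp, lay in a window that rose by log2 2.86 at P28. The window of the tight junction gene Cldn3 rose by log2 3.59 at P10. All of these had edgeR adjusted p-values under the threshold in every alternative that gave a value.

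Among the windows that fell, the one over the aminopeptidase gene Aopep held 33.8 to 54.9 CPM in Syn1Cre and 8.62, 18.4, 0 and 19 in SP1 animals at P28 (log2 -1.66, SE 0.35, edgeR adjusted p = 5.28e-04). The window over Lrba fell too (log2 -1.26). Those over Zfhx4 (-1.40), Rapgef5 (-0.99) and Nbea (-0.80) were called at P28 but lost the call in some alternatives. At P10 a window of histone genes fell by 1.48 on the log2 scale, with 23.0, 33.4 and 21.0 CPM against 51.9 to 85.1 in Syn1Cre. The 4 other windows called lower at P10, over Nbea, Zfhx4, Tenm4 and Bcas3, held 0 insertions in all 3 animals. Set against 3 counts in those animals together, they were at least 2.67-fold, 1.85-fold, 1.71-fold and 1.40-fold lower. Of the windows called lower at P10, the one over Nbea kept the edgeR call in all 14 alternatives, and the other 4 lost it in 3 to 5 alternatives.

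**Figure D5:**
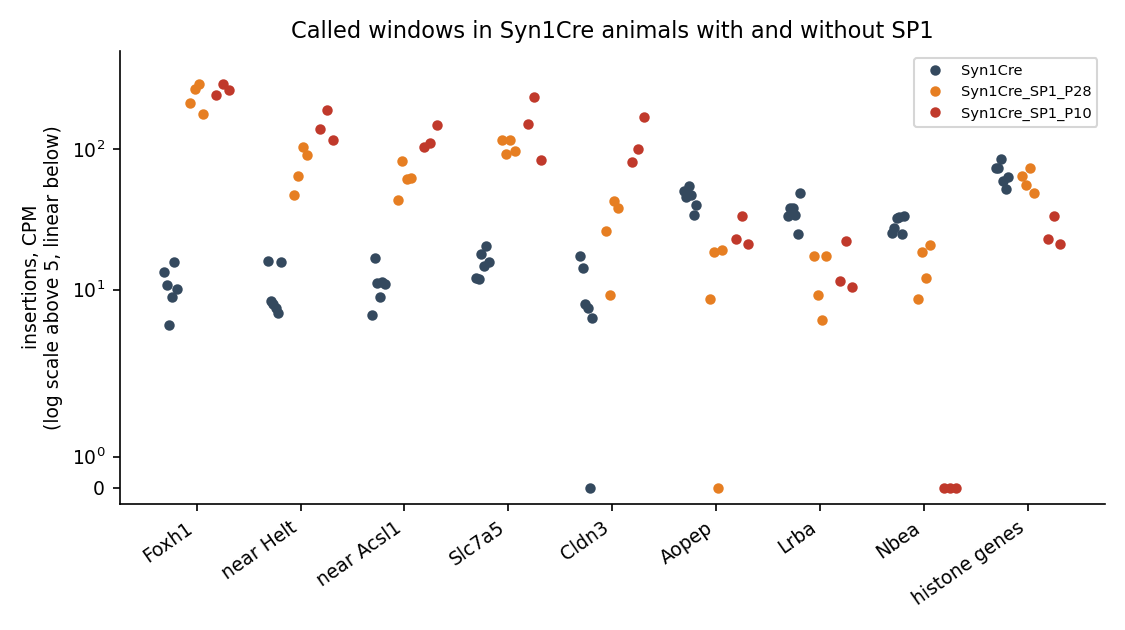
Insertions in CPM in 9 of the windows called in either SP1 comparison, 1 point per animal, in Syn1Cre (n = 6), Syn1Cre_SP1_P28 (n = 4) and Syn1Cre_SP1_P10 (n = 3), on an axis that is logarithmic above 5 and linear below. In the Foxh1 window SP1 animals lie between 177 and 292 and Syn1Cre animals at or below 15.8.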

How the data were processed

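Insertion tables of 46 animals in 11 groups and of N2a were used, 47 tables from 194 GEO samples. Per the submitters' processing notes the tools include Novoalign and Bowtie2 and the build is mm10. Each table as the authors deposited it lists 1 insertion per line with its read count, a raw count judged from the values. The labels gave the groups, and each animal is 1 replicate. Nothing in the labels says that replicate numbers mark a shared litter. BrokenHeart starts were moved by 1 base to the frame of the other tables. Lines were counted per 50 kb window and scaled to CPM. Genes and promoters are RefSeq, GRCm38.p6. Windows of chromosomes 1 to 19 and X were tested with edgeR 4.0.16 (quasi-likelihood, TMM, its low-count filter, only the groups compared, Benjamini-Hochberg, threshold 0.05) in R 4.3.3, tested on simulated data first. DESeq2 1.42.0 was an alternative. Ratios against fewer than 3 C57bl6J lines use 3.

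The windows and gene lists were chosen with earlier results of these data known. Named windows were the 15 with the most N2a insertions and the 10 with the highest ratio (each the highest of its run), those overlapping a listed gene, those at the borders of the choice, and up to 5 called windows per direction and comparison. A few windows and genes that these rules pick are not reported here. Nearest genes counted for 4 or more windows, runs and single positions were singled out after their values were seen. Counting intervals do not cover amplification error.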

Additional observations from a re-analysis of the deposited data

Results flagged for a closer look

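In each group of 4 to 10 animals, the highest or lowest animal was set against the others by Dixon's gap criterion. The values examined included the share of insertions in the chosen windows and the levels of 23 named windows. Of 174 groups of values examined, 15 had an animal that stood apart. Chance gives about 1 in 20 for continuous values, a rate that does not hold for windows with very few insertions.

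Syn1Cre animal 5 had the lowest share of insertions in the chosen windows of its group, 0.610%, against 0.684% in the next animal. It was also low in the window near Mrm1, at 4.51 CPM against 15.4 in the next. GFAPCre animal 3 was high in the window near Rps24 (48.3 against 31.0). In the window chr13:116500001-116550000 near Isl1, Syn1Cre animal 4 stood at 13.9 against 11.3 and GFAPCreNeg animal 6 at 9.61 against 4.93. The GFAPCreNeg animals held only 1 to 2 insertions each in that window. GFAPCreNeg animal 6 also stood apart in the Cldn3 window, at 9.61 against 2.47. Syn1CreNeg animals stood apart in the windows near Gpr158 (12.7 against 2.39, animal 6) and in the second Zfhx4 window (46.5 against 20.5, animal 1).

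The remaining cases are single animals above others at 0. The Rbp4Cre_TRAP tables held only 24408 to 57014 insertions, so each of these values rests on very few insertions. Rbp4Cre_TRAP animal 1 had 35.1 CPM in a Zfhx4 window and in the Lrba window chr3:86400001-86450000. Animal 2 of that group had 19.9 in the windows near Acsl1 and over Bcas3, and 39.7 in the Cldn3 window. Animal 3 had 25 in the windows over Rapgef5 and over Slc7a5.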

How the results depend on the processing

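The number of chosen windows followed the thresholds: 303 with at least 100 insertions, 1746 at 4 times, 227 at 16 times, 366 windows of 100 kb, and 108 when distinct positions were counted against the same minimum of 50. The other 7 alternatives gave 634 to 993. Counting distinct positions moved the share of insertions in the chosen windows to 6.80% in N2a, 0.909% in C57bl6J, 0.820% in Syn1Cre, 0.708% in Syn1CreNeg, 0.787% in GFAPCre, 0.702% in GFAPCreNeg, 0.743% in Frontflip_GFAPCre, 0.870% in SP1 at P28 and 0.944% in SP1 at P10. With insertions on chromosomes 1 to 19 as the denominator it was 10.3% in N2a and 0.749% in C57bl6J.

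For Syn1Cre against GFAPCre, 2 higher and 3 lower became 1 and 1 with DESeq2, 0 and 1 with distinct positions, and 7 and 17 with Syn1Cre animals 1 to 3 only (3.08% and 7.49% of those tested, against 4.98% and 7.39% of all windows). With no filter 6 were lower (0.881%, against 1.31% of all windows). Leaving out 1 animal at a time gave 0 to 5 higher and 1 to 12 lower. For SP1 at P28, 34 were higher with distinct positions, and 2 were lower with DESeq2 and 17 with no filter. Leaving out 1 animal gave 47 to 61 higher and 4 to 11 lower. For SP1 at P10, 20 were higher with distinct positions and 22 with no filter, and 11 were lower with no filter. Leaving out 1 animal gave 20 to 34 higher and 1 to 6 lower. The cause of these shifts was not tested. Without flanks, loci at 2 or more times C57bl6J numbered 5 for mesenchymal and neural crest factors, 2 for astrocyte genes, 1 for oligodendrocyte genes and 6 for Hox genes.

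With the replicate number as a block, 1 window was higher and 1 lower for Syn1Cre against GFAPCre, 54 and 2 for SP1 at P28, and 30 and 4 for SP1 at P10. Same-numbered animals showed no strong common deviation (correlations -0.187 to 0.161). These correlations cannot show whether such animals share a litter or batch, which the labels do not say. N2a is 1 combined table without a replicate, and most chosen windows were too shallow in the animals to be tested.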
